A study of Mus musculus with 8 samples.

Results

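*Ret*, *Met*, *Gfra1*, *Gfra2*, *Ntrk2*, *Ntrk3*, *Cbl* and *Cblb* were followed in bulk RNA-seq data from the brains of *Lrig1* KO and WT mice. These are 8 of the 54307 genes in the deposited table. They were chosen by name as receptor tyrosine kinases outside the EGFR family that LRIG1 is known to restrain, their co-receptors, and CBL ubiquitin ligases. The rule uses no measured value, but earlier results of these data were known when the genes were chosen. Of the 8 genes, 8 passed edgeR's filter on low counts. Periventricular tissue that contains the ventricular-subventricular zone (V-SVZ) was dissected at 8 weeks of age, and RNA from 1 hemisphere of each mouse was sequenced after polyA selection. The 4 KO mice (2 female, 2 male) were homozygous for CreERT2, a tamoxifen-dependent Cre recombinase, knocked into exon 1 of *Lrig1*, which makes them constitutive knockouts. The 4 WT mice (3 female, 1 male) were homozygous for the wild-type allele and carried no CreERT2. Both groups had the same 129 background according to their labels. A mouse is named here by its group and replicate number, and WT2 was the only male WT mouse.

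RET, MET, TrkB (from *Ntrk2*) and TrkC (from *Ntrk3*) are receptors with an extracellular part that binds a ligand and an intracellular tyrosine kinase. RET binds ligands of the GDNF family only together with a co-receptor held at the cell surface by a lipid anchor, such as GFRA1 or GFRA2, whereas MET binds hepatocyte growth factor and the Trk receptors bind neurotrophins. CBL and CBLB are ubiquitin ligases that recognise activated receptors and send them for degradation. LRIG1 acts on such receptors as a protein in the membrane, and mRNA levels say nothing about that step.

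The targeted gene was checked first. *Lrig1* had between 13.5 and 45.6 CPM (library-scaled counts, normalized by TMM) in WT and between 1.17 and 4.15 in KO, so the groups did not overlap and matched their labels. Its log2 fold change was -3.80, yet the main edgeR test gave it an adjusted p of 0.286 (Benjamini-Hochberg) and did not call it. A gene that this test does not call can therefore still differ between the groups. Total counts lay between 47887437 and 74482334. Of the marker genes of V-SVZ cells, those of neural stem cells and progenitors summed to between 79.3 and 116 CPM and those of neuroblasts to between 407 and 520 CPM, in tissue that also held markers of striatal neurons (3033 to 9243 CPM) and oligodendrocytes (5676 to 7346 CPM). A pair of mice stood apart. In WT2, 10 markers of cortical excitatory neurons summed to 3578 CPM, against 511 to 1762 in the other mice, and its striatal markers were the lowest. In KO2, 10 markers of septal and hypothalamic neurons summed to 480 CPM, against 30.3 to 117 in the others. Results that rest on these mice are given with and without them. In bulk tissue, fewer cells of a type and less RNA per cell cannot be told apart.

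No difference between KO and WT was detected for any of the 8 genes. An adjusted p under 0.1, the threshold of the study, was reached by 0 of 8 (quasi-likelihood test of edgeR, Benjamini-Hochberg over 17669 genes). Across all genes tested 0.00566% were called. The study used DESeq2 and reported many more genes at this threshold, with *Lrig1* the most significant of those lower in KO. The main test here therefore departs from the published result. It had no covariate, although the sexes were unequally spread over the groups. DESeq2 with sex as a covariate called 1.13% of all genes and 0 of the 8, and DESeq2 without covariates called fewer genes. The adjusted p of *Lrig1* was 4.9e-97 with sex and 4.5e-08 without covariates (DESeq2, Benjamini-Hochberg). Of the settings run, DESeq2 with sex came closest to the published number of genes and adjusted p of *Lrig1*. The paper does not state whether its model included sex, and the cause of the departure was not tested. At an unadjusted p under 0.05 the count was 0 of 8 in edgeR, beside 1.88% of all genes (1.08% lower and 0.809% higher in KO). DESeq2 without covariates also counted none of the 8, beside 1.66% of all genes there. It gave *Met* no adjusted p, and missing values were counted as not called, so *Met* could not be called in that setting. The KO and WT values overlapped for 8 of 8, and 1.53% of all genes had groups that did not overlap. The log2 fold change of KO over WT was below 0 for 6 of the 8 and above 0 for 2, with a median of -0.08 (-0.00 over all genes tested). The median was 0.040 without WT2 and 0.062 with the cortical markers as a covariate. The adjusted p was 0.9998 for each of the 8.

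**Figure D1:**
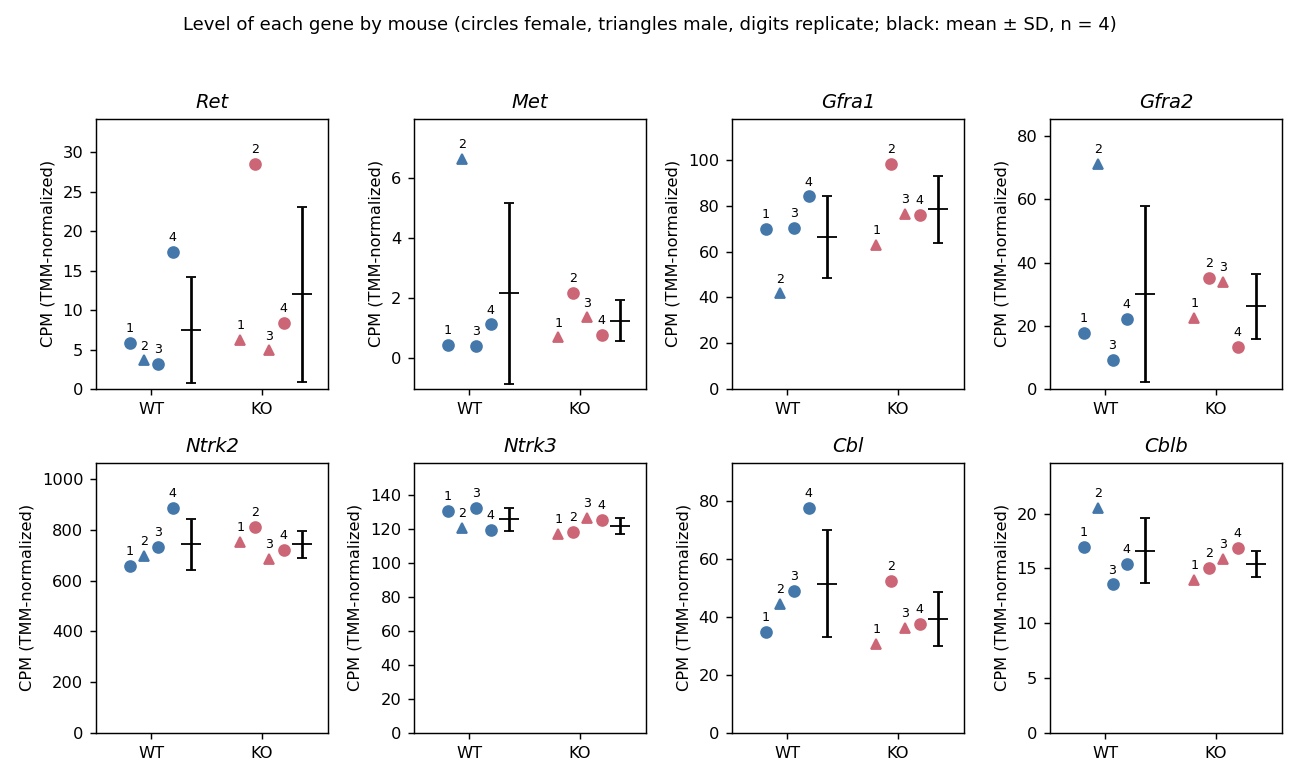
Level of each gene in CPM (linear axis) in 4 WT and 4 KO mice. Circles are female and triangles male mice, the digit is the replicate number, and black marks give the mean and SD (n = 4). WT2 lies far above the other WT mice for *Met* and *Gfra2*, KO2 lies above the other KO mice for *Ret*, and the values of *Ntrk2* and *Ntrk3* lie close together.

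The genes differed in how far they varied among the mice. The highest mouse was 16.4 times the lowest for *Met*, 9.10 times for *Ret* and 7.67 times for *Gfra2*. The ratio was 2.54 for *Cbl*, 2.35 for *Gfra1*, 1.52 for *Cblb* and 1.35 for *Ntrk2*. *Ntrk3* was the steadiest of the 8, with a ratio of 1.13.

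Levels of different genes were compared per transcript length, in TPM (length-scaled transcript abundance) summed over each gene's transcripts. *Ntrk2* had a mean of 148 TPM over the 8 mice (range 123 to 203). *Gfra1* followed with 28.6 TPM (18.0 to 39.5) and *Ntrk3* with 24.2 TPM (20.5 to 28.7). The co-receptor *Gfra2* had 12.9 TPM (3.26 to 35.3), above the ligases *Cbl* with 5.77 TPM (3.12 to 10.3) and *Cblb* with 3.57 TPM (2.57 to 5.15). *Ret* had 2.80 TPM (0.765 to 8.05) and *Met* 0.437 TPM (0.0685 to 1.71). Between neighbours in this order, *Ntrk2* and *Gfra1* were the only pair whose ranges over mice did not overlap. The co-receptor *Gfra1* was thus present at a higher level per length than *Ret* in each of the 8 mice.

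**Figure D2:**
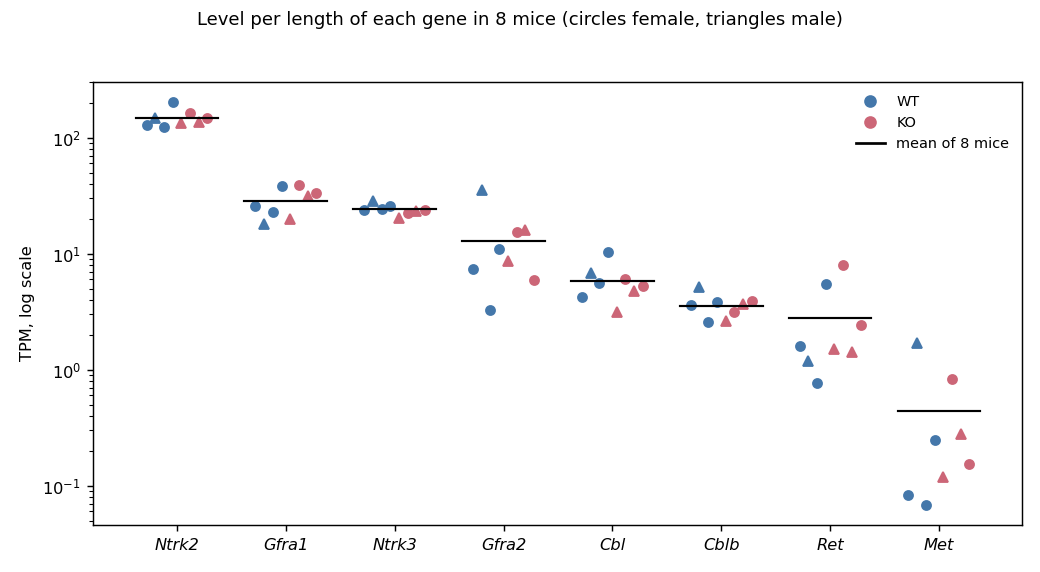
Level of each gene per transcript length, in TPM on a log axis, with a point for each of 8 mice and a black line at their mean. *Ntrk2* lies above the other genes in every mouse, and *Met* and *Ret* have the lowest means and, with *Gfra2*, the widest spread.

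*Ret*, the signalling receptor for the GDNF family, was measured at 5.88, 3.62, 3.13 and 17.4 CPM in WT1 to WT4 and at 6.19, 28.5, 4.89 and 8.37 CPM in KO1 to KO4. KO2 and WT4 were high and the other 6 mice lay between 3.13 and 8.37 CPM, and the groups overlapped. The means were 7.51 ± 6.71 CPM in WT and 11.99 ± 11.1 in KO (SD, n = 4 each), a log2 fold change of 0.68 (standard error 0.71). Its direction rested on KO2. Without KO2 the log2 fold change was -0.21, and without WT4 it was 1.51, which had an unadjusted p of 0.0496 and an adjusted p of 1.0 in edgeR (Benjamini-Hochberg).

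The markers of septal and hypothalamic neurons followed *Ret* in the mice with its highest and lowest levels, but not in all those between. KO2, WT4 and KO4 had the 3 highest levels of *Ret*, and in the same order the 3 highest marker sums, 480, 117 and 97.8 CPM. WT2 and WT3 had the 2 lowest levels of *Ret* and the 2 lowest sums, 30.3 and 39.3 CPM. KO1 ranked 4 for *Ret* and 6 by the sum, and KO3 ranked 6 for *Ret* and 4 by the sum. The sums ranged from 30.3 to 117 CPM in WT and from 41.7 to 480 in KO, where the mice other than KO2 had at most 97.8 CPM. Of these markers, 10 of 10 had a log2 fold change above 0, with a median of 1.19 and 0 past the adjusted threshold (edgeR). The markers were chosen with earlier results of these data known, so their shared direction is not independent evidence. None of these markers was at 0 in all mice. KO4, KO2 and WT4 also had the 3 highest sums of 7 markers of cholinergic neurons (195, 168 and 161 CPM), and WT2 had the lowest (31.2 CPM). The part of either kind of neuron in the level of *Ret* was not tested.

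Over the 8 mice, the 3 genes whose pattern was most like that of *Ret* were *Gpx3*, *Zim1* and *Itih3*. Likeness was the root mean square difference of centred log2 CPM among 14433 genes with a mean of at least 1 CPM. It was 0.24 for *Gpx3*, whose level ran from 5.05 CPM in WT3 to 77.6 CPM in KO2. It was 0.30 for *Zim1* and 0.32 for *Itih3*.

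*Ret* has 2 coding transcripts in the annotation, which share their first 3191 coding bases and then end differently, with 1073 residues in the short form and 1115 in the long form. The sequences are shown because they are what separates reads of the forms. The last 30 shared coding bases are in lower case and the bases particular to each form in capitals. The short tail runs for 31 bases to the end of its stop codon, and of the 157 bases of the long tail the first 60 are shown. All sequences below were read from Gencode M21 transcripts of the same identifier as in the files (GRCm38, coding strand).
RET short tail: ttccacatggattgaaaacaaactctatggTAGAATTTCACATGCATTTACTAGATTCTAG
RET long tail: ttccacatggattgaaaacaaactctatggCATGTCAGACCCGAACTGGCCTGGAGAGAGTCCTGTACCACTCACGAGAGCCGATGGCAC

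The short form was the larger in each mouse. The long form made up 37.7, 25.7, 32.7 and 41.8% of the coding TPM of *Ret* in WT1 to WT4 and 43.1, 33.0, 39.7 and 34.3% in KO1 to KO4. In KO2 and WT4, where *Ret* was highest, both forms were high, with 5.39 and 3.16 TPM of the short form and 2.66 and 2.27 TPM of the long form. The mean share was 34.5 ± 6.94% in WT and 37.5 ± 4.69% in KO (SD, n = 4 each; exact permutation test, 2-sided, p = 0.514). This is one of 8 shares tested in this way, and the smallest p that 4 mice against 4 allow is 0.0286.

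*Gfra1*, the preferred co-receptor of GDNF, had 69.8, 41.8, 70.2 and 84.2 CPM in WT1 to WT4 and 62.8, 98.4, 76.4 and 76.2 CPM in KO1 to KO4. WT2 was the lowest and KO2 the highest, the reverse of their order for the cortical markers. The means were 66.5 ± 17.8 CPM in WT and 78.5 ± 14.7 in KO (SD, n = 4 each), a log2 fold change of 0.24 (standard error 0.21). Without WT2 it was 0.07 and without KO2 0.11. With sex as a covariate in edgeR it was 0.40, with an adjusted p of 0.627 (Benjamini-Hochberg). *Gfra1* was then the only one of the 8 genes to have an unadjusted p under 0.05, beside 6.95% of all genes. DESeq2 with sex also gave 0.40, with an unadjusted p of 0.0092 and an adjusted p of 0.312 (Benjamini-Hochberg). That was the lowest adjusted p of the 8 genes in any setting.

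The main coding forms of *Gfra1* have 468 and 463 residues. They differ by a stretch of 15 bases that begins after coding base 418 of the longer form, shown in capitals between 30 shared bases on each side.
GFRA1 468 residues: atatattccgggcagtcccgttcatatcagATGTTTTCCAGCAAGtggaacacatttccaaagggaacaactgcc
GFRA1 463 residues: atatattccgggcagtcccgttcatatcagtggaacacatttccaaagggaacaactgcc

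The form without the 15 bases held 24.9, 33.1, 29.8 and 23.1% of the coding TPM in WT1 to WT4 and 25.2, 19.9, 21.8 and 23.9% in KO1 to KO4. The share lay above 29% in WT2 and WT3 and below 26% in the other 6 mice, so the groups overlapped. The means were 27.8 ± 4.55% and 22.7 ± 2.34% (SD, n = 4 each), with p = 0.143 in the exact permutation test (2-sided), the smallest p among the 8 shares. A transcript fragment annotated as coding, Gfra1-204, held 8.04 to 16.3% in WT and 12.1 ± 1.05% in KO, with a difference of the means of 0.054 points (exact permutation test, 2-sided, p = 0.943, n = 4 each).

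*Gfra2*, the preferred co-receptor of neurturin, had 17.7, 71.2, 9.29 and 22.1 CPM in WT1 to WT4 and 22.5, 35.0, 34.0 and 13.3 CPM in KO1 to KO4. WT2 was highest, at more than the sum of any pair of other mice, and WT3 was lowest. The means were 30.1 ± 27.9 CPM in WT and 26.2 ± 10.3 in KO (SD, n = 4 each), and the log2 fold change was -0.20 (standard error 0.58). Without WT2 it was 0.68 and without KO2 -0.37. The form of 331 residues held 7.76 ± 5.04% of coding TPM in WT, from 1.48% in WT3 to 12.5% in WT4, and 12.3 ± 1.52% in KO (SD, n = 4 each; exact permutation test, 2-sided, p = 0.171). The rest came almost wholly from the form of 464 residues.

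*Met*, the receptor for hepatocyte growth factor, was the lowest of the 8 genes per length. It had 0.432, 6.66, 0.405 and 1.12 CPM in WT1 to WT4 and 0.684, 2.17, 1.35 and 0.772 CPM in KO1 to KO4. WT2 stood far above the next mouse, KO2, and the other 6 lay between 0.405 and 1.35 CPM. Estimated counts were between 19 and 128 in 7 mice and 407 in WT2, so the values of the low mice are coarse. The log2 fold change was -0.80 (standard error 0.88), and the means were 2.15 ± 3.02 CPM in WT and 1.24 ± 0.683 in KO (SD, n = 4 each). Without WT2 the direction turned, to 0.93, with 0.405 to 1.12 CPM in the remaining WT mice against 0.684 to 2.17 in KO. Without KO2 it was -1.20.

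WT2 was also the mouse with the most cortical marker RNA. The sum of the cortical excitatory markers was 1106, 3578, 874 and 754 CPM in WT1 to WT4 and 1278, 511, 1762 and 737 CPM in KO1 to KO4. Of the 10 markers, 9 had a log2 fold change below 0 and 1 above, with a median of -0.81, 0 passed the adjusted threshold (edgeR), and none was at 0 in all mice. *Met* and *Gfra2* both had their highest level in WT2 and ranked KO3 at 3, the mice ranked 1 and 2 by the marker sum. Both ranked KO2 at 2, which was the lowest mouse by the marker sum. *Nrgn* made up 423 of the 511 CPM in KO2. By the mean log2 CPM of these markers, centred over mice, KO4 was lowest (-2.07) and KO2 next (-1.39). With the mean log2 CPM of these markers as a covariate, the log2 fold change was 0.47 for *Met* and 0.53 for *Gfra2*, against -0.80 and -0.20 without it, and it fell to 0.19 for *Ret*.

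**Figure D3:**
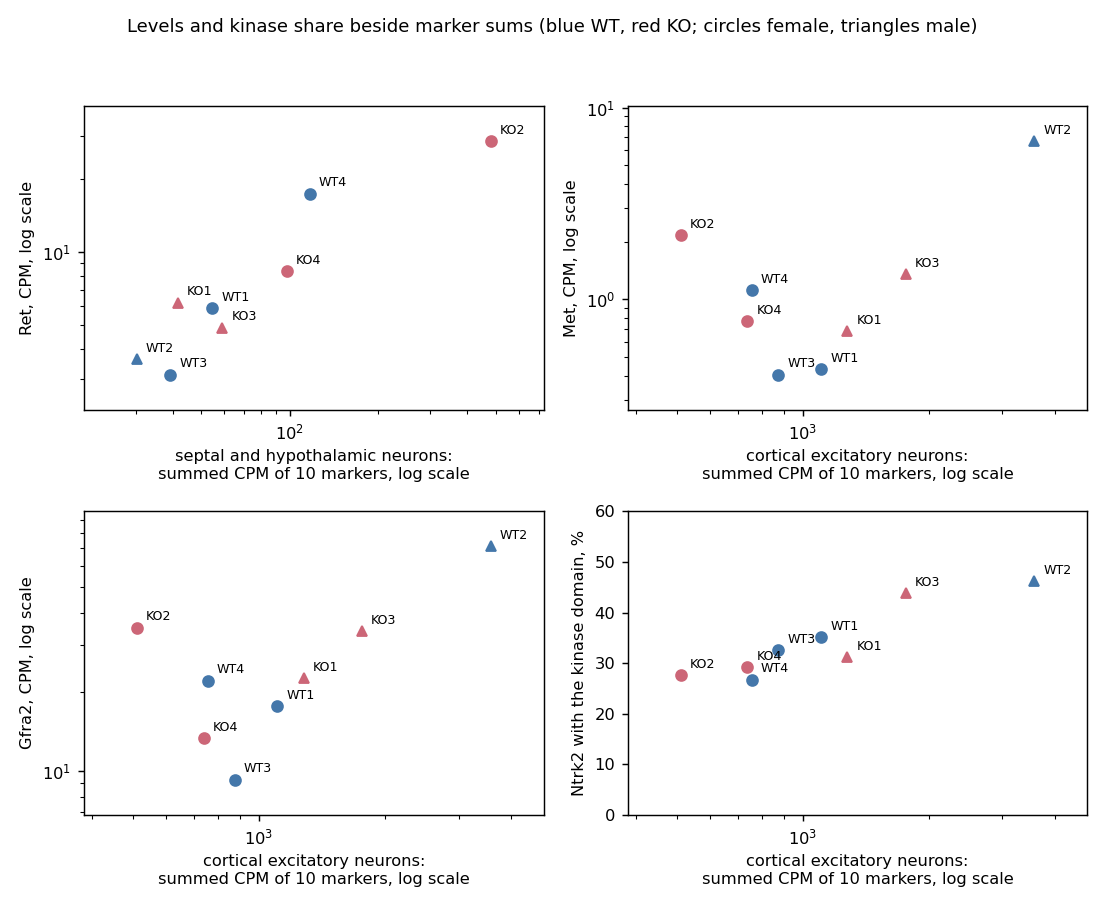
Level of *Ret* against the summed CPM of 10 septal and hypothalamic markers, and levels of *Met* and *Gfra2* and the *Ntrk2* kinase share against the summed CPM of 10 cortical markers, 1 point per mouse (axes logarithmic except the percentage). *Ret* is highest in KO2 with a marker sum of 480 CPM, *Met*, *Gfra2* and the kinase share are highest in WT2 with a sum of 3578 CPM, and KO2 is second highest for *Met* and *Gfra2* at the lowest cortical sum.

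The genes most like *Met* over the 8 mice were *Vgll3*, *Tmem215* and *C77080*, with root mean square differences of 0.34, 0.43 and 0.47 on the log2 scale. Each was highest in WT2, at 4.34, 10.8 and 20.8 CPM. Those most like *Gfra2* were *Cadps2* (0.19), *Doc2a* (0.20) and *Ptprk* (0.20), again highest in WT2. For *Gfra1* they were *Lhfpl3* (0.11), *Rcan3* (0.11) and *2810410L24Rik* (0.11), each lowest in WT2 and highest in KO2.

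The transcript of the full receptor, with 1379 residues, held all of the coding TPM of *Met* in 6 of the 8 mice. In KO2 a fragment, Met-206, was given 51.0% of the coding TPM, and in WT2 another fragment, Met-204, was given 13.8%. These shares rest on 4 and 6 estimated counts, which weigh heavily in TPM because the fragments are short. The test of the Met-206 share gave p = 1 (exact permutation test, 2-sided, n = 4 each).

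*Ntrk2*, the receptor for BDNF and neurotrophin 4, had 658, 699, 732 and 888 CPM in WT1 to WT4 and 753, 813, 687 and 723 CPM in KO1 to KO4. WT4 was highest and WT1 lowest, with all KO mice between them. The means were 744 ± 101 CPM in WT and 744 ± 53.4 in KO (SD, n = 4 each), a log2 fold change of -0.00 (standard error 0.11).

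TrkB and TrkC are each made with and without the kinase domain from alternative 3' ends of the transcript. The forms without it, which include TrkB.T1, the main TrkB form of astrocytes, bind neurotrophins but cannot signal as kinases. A form was counted as kinase-bearing where its translated coding sequence held the catalytic loop motif of receptor tyrosine kinases. The point at which the forms part is shown because the shares below depend on it, again with the last 30 shared coding bases in lower case and the first bases particular to a form, at most 60, in capitals. TrkB without the kinase domain has 37 such bases, to the end of its stop codon, and TrkC without it has 254.
TrkB without the kinase domain: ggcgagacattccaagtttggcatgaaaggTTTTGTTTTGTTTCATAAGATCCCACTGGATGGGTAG
TrkB with the kinase domain: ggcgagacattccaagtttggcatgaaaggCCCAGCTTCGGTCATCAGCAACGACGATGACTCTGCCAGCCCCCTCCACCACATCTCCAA
TrkC without the kinase domain: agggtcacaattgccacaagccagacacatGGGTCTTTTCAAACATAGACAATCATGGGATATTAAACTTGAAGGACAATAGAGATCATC
TrkC with the kinase domain: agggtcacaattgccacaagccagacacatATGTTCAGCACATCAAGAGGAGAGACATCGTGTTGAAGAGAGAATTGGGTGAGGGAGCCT

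The TrkB form of 476 residues, TrkB.T1, was the most abundant product of *Ntrk2*, with between 74.9 and 145 TPM and between 52.9 and 72.7% of the coding TPM in the 8 mice. The kinase-bearing forms held 35.2, 46.1, 32.6 and 26.7% in WT1 to WT4 and 31.1, 27.6, 43.8 and 29.1% in KO1 to KO4. WT2 and KO3 were high and the other 6 mice lay between 26.7 and 35.2%. The mean share was 35.2 ± 8.14% in WT and 32.9 ± 7.41% in KO (SD, n = 4 each; exact permutation test, 2-sided, p = 0.629). WT2 and KO3 were also the mice with the most cortical marker RNA, 3578 and 1762 CPM. The 3 mice with the lowest sums, KO2, KO4 and WT4, had the 3 lowest shares. That match depended on the measure, because *Nrgn* alone had 423, 675 and 490 CPM in KO2, KO4 and WT4. By the mean log2 CPM of the same markers, centred over mice, WT3 (-1.14) lay below WT4 (-0.14). The 8 astrocyte markers summed to between 4095 and 4609 CPM in WT and between 3775 and 4068 in KO, so that the groups did not overlap, with KO the lower. Sums of the other marker lists were examined too, and this was the only list whose sums separated the groups. Of these astrocyte markers, 5 had a log2 fold change below 0 and 3 above, and 0 had groups that did not overlap. Of them 1 was lower at an unadjusted p under 0.05 (1.08% of all genes tested were), and 0 passed the adjusted threshold (edgeR). Their median log2 fold change was -0.08. The part of cortical neurons or astrocytes in the share was not tested. Without WT2 the difference between the groups turned from -2.26 to 1.40 percentage points.

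In TPM, the high shares of WT2 and KO3 came with more of the kinase-bearing forms. These had 68.4 and 59.1 TPM in WT2 and KO3 and between 40.2 and 53.3 TPM in the other mice. The forms without the kinase domain were lowest in the same pair, with 79.8 and 75.8 TPM, but only just below the 82.4 TPM of WT1. Their means were 97.9 ± 32.4 TPM in WT and 97.5 ± 17.6 in KO (SD, n = 4 each), with groups that overlapped. WT4, with the highest *Ntrk2* of all, had 146 TPM of the forms without the kinase domain.

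*Ntrk3*, the receptor for neurotrophin 3, varied least. It had 131, 121, 133 and 119 CPM in WT1 to WT4 and 117, 118, 127 and 125 CPM in KO1 to KO4, and the groups overlapped. The means were 126 ± 6.83 CPM in WT and 122 ± 4.79 in KO (SD, n = 4 each), a log2 fold change of -0.05 (standard error 0.06). The kinase-bearing forms held 23.8 ± 2.45% of the coding TPM in WT and 24.0 ± 1.32% in KO (SD, n = 4 each; exact permutation test, 2-sided, p = 1). Over the 8 mice this share lay between 22.0 and 27.3%, and WT4 was the highest, so it did not rise with the kinase share of *Ntrk2*, for which WT4 was the lowest. Nearly all TPM of the forms without the kinase domain came from 1 transcript that encodes 612 residues.

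**Figure D4:**
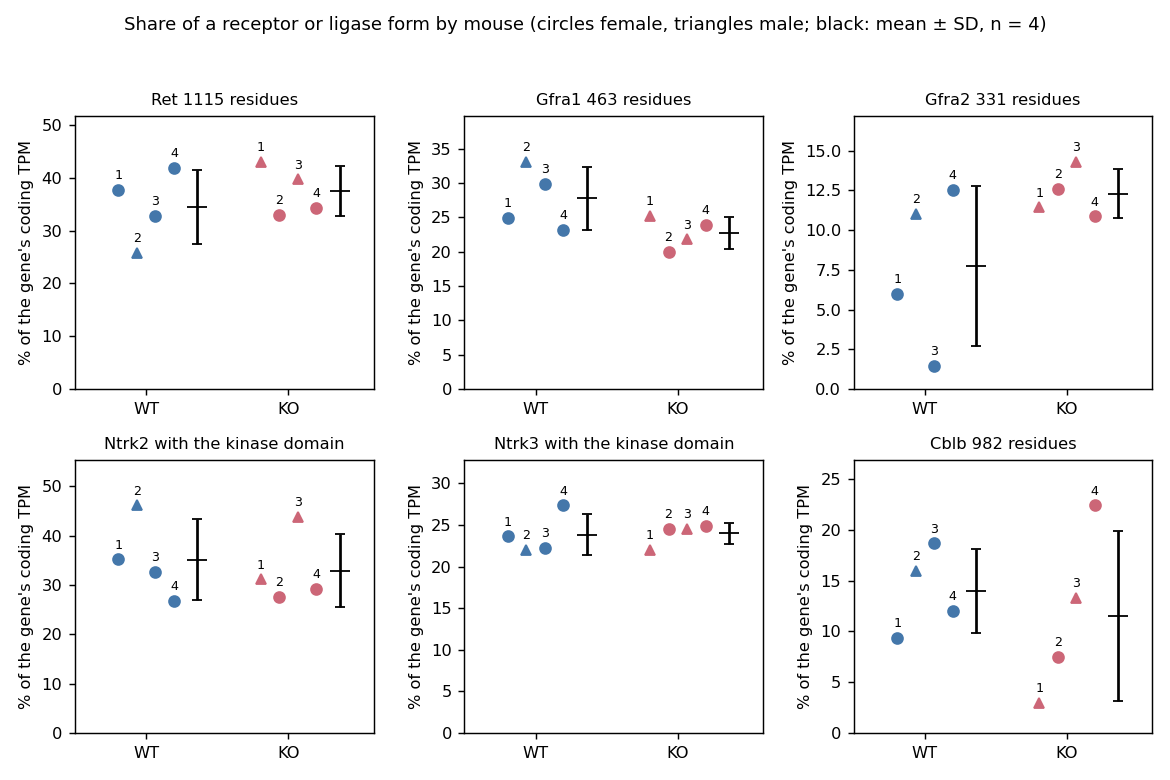
Share of a form in the coding TPM of its gene, in percent, in 4 WT and 4 KO mice (circles female, triangles male, digits replicate; black marks mean and SD, n = 4). WT2 and KO3 lie at 46.1 and 43.8% for *Ntrk2* with the kinase domain, above the other 6 mice, while the shares of *Ntrk3* lie between 22.0 and 27.3%, and WT and KO overlap in each panel.

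*Cbl*, the ligase best known for removing activated EGFR, had 34.8, 44.4, 49.1 and 77.7 CPM in WT1 to WT4 and 30.6, 52.5, 36.3 and 37.7 CPM in KO1 to KO4. WT4 was highest, above KO2, and 3 of the 4 KO mice lay below 3 of the 4 WT mice. The means were 51.5 ± 18.5 CPM in WT and 39.2 ± 9.33 in KO (SD, n = 4 each), a log2 fold change of -0.39 (standard error 0.25). It had the lowest unadjusted p of the 8 genes, 0.156 in edgeR, at rank 1724 among the genes tested, and without WT4 its log2 fold change was -0.12. The transcript of 913 residues held between 85.2 and 100% of its coding TPM.

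*Cblb*, a close relative of *Cbl*, had 17.0, 20.5, 13.5 and 15.4 CPM in WT1 to WT4 and 14.0, 15.0, 15.8 and 16.8 CPM in KO1 to KO4. WT2 was highest and WT3 lowest, with the KO mice between them. The means were 16.6 ± 2.97 CPM in WT and 15.4 ± 1.21 in KO (SD, n = 4 each), a log2 fold change of -0.11 (standard error 0.13). The form of 982 residues held from 2.98% of the coding TPM in KO1 to 22.4% in KO4, with means of 14.0 ± 4.14% in WT and 11.5 ± 8.38% in KO (SD, n = 4 each; exact permutation test, 2-sided, p = 0.629). The genes most like *Cbl* over the mice were *Asap3* (root mean square difference 0.13 on the log2 scale), *Nckap5* (0.17) and *Plekhf1* (0.18), and those most like *Cblb* were *Cyth3* (0.06), *Man1a2* (0.07) and *Paqr3* (0.07).

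**Figure D5:**
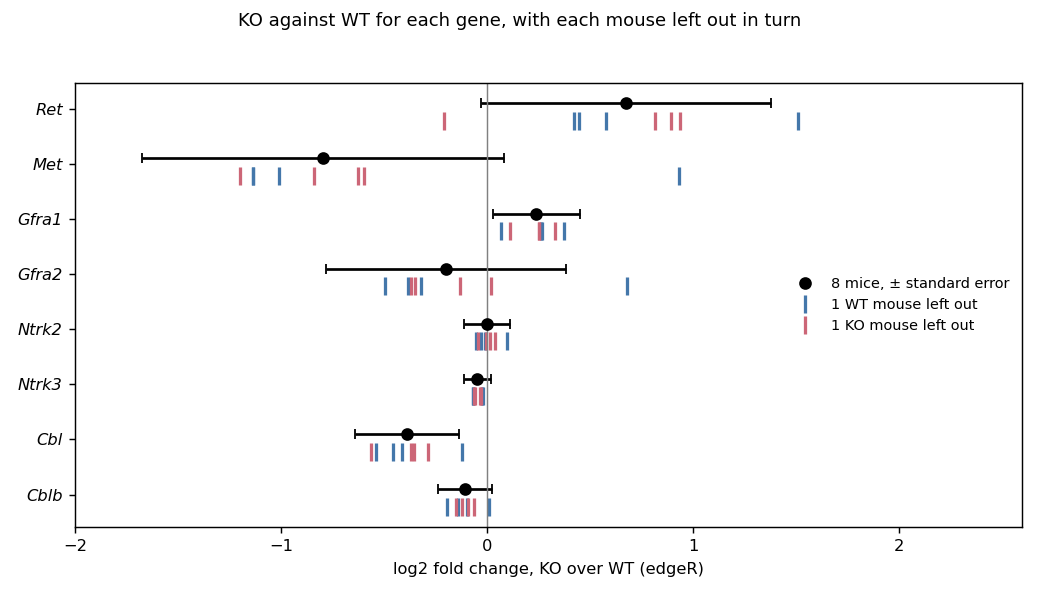
Log2 fold change of KO over WT for each gene from edgeR (black, with standard error) and with each mouse left out in turn (blue bars, WT mouse; red bars, KO mouse). *Ret* runs from -0.21 to 1.51, *Met* from -1.20 to 0.93 and *Gfra2* from -0.50 to 0.68, whereas *Ntrk3* stays between -0.07 and -0.02.

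At the level of transcripts, 69 transcripts belonged to the 8 genes and 24 passed the filter. An unadjusted p under 0.05 was reached by 0 of the 24 (2.04% of the 39966 transcripts tested), an adjusted p under 0.1 by 0 of 24 (0% of all), and groups that did not overlap by 0 of 24 (2.01% of all; edgeR, Benjamini-Hochberg). The tested transcripts that held at least 5% of their gene's TPM included both tails of *Ret*, the 468- and 463-residue forms of *Gfra1*, and the TrkB and TrkC forms with and without the kinase domain.

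Ligands, other receptors, adaptors and partners of the CBL proteins were examined as lists of 66 genes, of which 59 were tested. An adjusted p under 0.1 was reached by 0 of the 59, beside 0.00566% of all genes tested (edgeR, Benjamini-Hochberg over all genes). An unadjusted p under 0.05 was reached by 1 of the 59, beside 1.88% of all genes. Groups that did not overlap were held by 0 of the 59, beside 1.53% of all genes. Their median log2 fold change was -0.02.

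Of the 10 ligands, 7 were tested, with log2 fold changes between -0.39 and 0.86 and none past the threshold. *Gdnf*, the ligand for GFRA1 and RET, had 3.69 ± 1.32 CPM in WT and 3.65 ± 0.856 in KO (SD, n = 4 each), and was lowest in WT2 at 1.73 CPM. *Nrtn*, the ligand for GFRA2, had 3.74 ± 0.798 and 3.81 ± 1.16 CPM, and *Artn*, another member of the family, had 0.459 ± 0.087 and 0.404 ± 0.0493 CPM (SD, n = 4 each). The fourth GDNF family ligand, *Pspn*, had 0 counts in every mouse, which allows up to 3 counts in a mouse, or between 0.0403 and 0.0626 CPM depending on its depth. This limit covers counting error only.

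*Hgf*, the ligand of MET, had 5.49, 10.2, 5.22 and 5.87 CPM in WT1 to WT4 and 7.21, 4.59, 5.26 and 3.39 CPM in KO1 to KO4, again highest in WT2. The log2 fold change was -0.39 (standard error 0.28) with WT2 and -0.12 without it. The related ligand *Mst1* had 0 counts in each WT mouse and 1 to 2 in each KO mouse and was not tested.

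*Bdnf*, the main ligand of TrkB, had 3.27, 20.4, 0.725 and 4.36 CPM in WT1 to WT4 and 5.33, 5.94, 10.5 and 1.64 CPM in KO1 to KO4. WT2 and KO3 were the 2 highest mice for *Bdnf*, for the kinase share of *Ntrk2* and for the cortical markers. The log2 fold change was -0.30 (standard error 0.88), and 1.07 without WT2. *Ntf3*, the ligand of TrkC, had 0.185 ± 0.132 CPM in WT and 0.345 ± 0.212 in KO (SD, n = 4 each). *Ntf5*, which encodes neurotrophin 4, had 0 to 5 counts in a mouse and was not tested.

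Among 12 other receptors and co-receptors, 10 were tested and 1 had an unadjusted p under 0.05, beside 1.88% of all genes. It was *Mst1r*, which encodes RON, the closest relative of MET, with 0.576, 1.10, 0.469 and 0.673 CPM in WT1 to WT4 and 0.449, 0.322, 0.477 and 0.473 CPM in KO1 to KO4. WT3 lay below the 2 highest KO mice, so the groups overlapped. The log2 fold change was -0.71 (standard error 0.31, unadjusted p = 0.0468, adjusted p = 0.9998 in edgeR with Benjamini-Hochberg adjustment), on 19 to 67 counts a mouse, and -0.41 without WT2. With a mouse left out, its unadjusted p stayed under 0.05 only without WT1 or WT3. The low-affinity neurotrophin receptor *Ngfr* had between 1.06 CPM in WT2 and 33.8 in WT4.

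None of the 23 tested genes for adaptors and phosphatases that bind these receptors, such as *Frs2*, *Shc1*, *Gab1*, *Grb2* and *Ptpn11*, had an unadjusted p under 0.05. The same held for the 19 tested of 21 partners of the CBL proteins, which include *Sh3kbp1*, *Cd2ap* and the *Ube2d* conjugating enzymes. The median log2 fold changes were -0.03 and -0.00. The third family member *Cblc* had at most 0.0491 CPM and was not tested. DESeq2 with sex as a covariate called 3 of the 59 genes, among them *Grb10* higher and *Sort1* lower in KO (adjusted p = 0.0775 and 0.027, Benjamini-Hochberg), and none of the 8 genes, where it called 1.13% of all genes. The same covariate in edgeR gave *Grb10* and *Sort1* an adjusted p of 0.555 each (Benjamini-Hochberg), and called none of the 59 and 0.0113% of all genes. In edgeR without covariates, the log2 fold change of *Grb10* was 0.43, and 0.14 without KO2, which was its highest mouse at 97.3 CPM. For *Sort1* it was -0.25, and -0.16 without WT2 as well as without KO2.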

How the data were processed

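The 8 libraries (4 WT, 4 KO mice) were sequenced by the authors and converted with bcl2fastq 2.20, and Salmon was run against Gencode M29. They deposited estimated counts per gene, not normalized, and estimated counts and TPM per transcript in a file per mouse. How transcripts were summed to genes, the Salmon version and the strand setting are not given in the sources used here. Every column matched a mouse.

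Estimated counts were rounded to whole numbers, normalized by TMM and tested with edgeR 4.0.16 (glmQLFTest after filterByExpr, R 4.3.3) without covariates, with Benjamini-Hochberg adjustment and a threshold of 0.1. DESeq2 1.42.0, the authors' tool, was an alternative. Standard errors are the log2 fold change over the square root of F. Counts per mouse totalled between 47887437 and 74482334. Symbols were found for 94.8% of gene identifiers. Transcripts were matched by identifier to Gencode M21 of GRCm38, which held 97.4% of them and at least 99.2% of reads. All 49 member transcripts with a coding sequence there had the length given in the files. No coordinates are given because the builds differ.

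The share of a form is its TPM over that of all coding transcripts of the gene, compared by a 2-sided exact permutation test of means. On simulated counts for 17669 genes with 200 changed by 2 on the log2 scale, edgeR recovered 187 with 18 other calls, and with no change it made 0 calls. For 39966 transcripts it recovered 146 of 200 with 18 other calls, and made 1 call with no change. Counts were simulated independently for each gene or transcript, without differences of dissection or sex shared by many genes. In the data, *Lrig1* at a log2 fold change of -3.80 had an adjusted p of 0.286 (edgeR, Benjamini-Hochberg). The simulated recovery is thus not the power of the test in these mice.

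The text names the 8 genes, *Lrig1*, the ligands measured, other listed genes with an unadjusted p under 0.05 or groups that do not overlap, and the 3 genes most like each of the 8 whose highest mouse is at least 1.5 times its lowest. The other listed genes named were chosen after seeing their values or stand as examples of a list. Some listed genes are not reported here. The members, lists and marker genes were chosen with earlier results of these data known. The labels call the mice separate replicates, with no batch given. The alternatives were size factors, DESeq2 with and without sex, other filters, sex, replicate number or cortical markers as a covariate, length offsets, females alone and each mouse left out.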

Additional observations from a re-analysis of the deposited data

Results flagged for a closer look

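Among 53 sets of 4 mice, 8 held a mouse whose gap to the nearest other exceeded Dixon's 95% limit for a set of 4. Chance flags about 1 in 20 independent sets. These sets share the same mice, and some of their genes were chosen after their values were seen, so that rate is no yardstick for the 8. Of the 8 flags, 4 were of WT2. WT2 had 6.66 CPM of *Met* against at most 1.12 in the other WT mice, 10.2 CPM of *Hgf* against at most 5.87, 576 CPM of *Sort1* (sortilin, a receptor for neurotrophin precursors) against at most 460, and a cortical marker sum of 3578 CPM against at most 1106. KO2 accounted for 3. It had 28.5 CPM of *Ret* against at most 8.37 in the other KO mice, a septal and hypothalamic marker sum of 480 CPM against at most 97.8, and 51.0% of *Met* coding TPM in the fragment Met-206, which was at 0 in the others and rests on 4 counts. The last was KO1, with 22.0% of *Ntrk3* in kinase-bearing forms against at least 24.5% in the other KO mice.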

How the results depend on the processing

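Adjusted over all genes, 0 of the 8 genes passed under any alternative run, though DESeq2 without covariates gave *Met* no adjusted p. The same held for their transcripts under those run for them, which were the minimum of 10 counts, sex, the replicate block and each mouse left out. Of the 59 listed genes, 3 passed with DESeq2 and sex as a covariate, a setting that called 1.13% of all genes. At an unadjusted p under 0.05, sex as a covariate gave 1 of the 8 genes (in edgeR and in DESeq2), 7 listed genes (in both) and 1 transcript of the 8 genes (edgeR). In edgeR with sex, 6.95% of all genes reached that threshold. Leaving out each mouse gave 0 to 1 of the 8 genes, 0 to 1 listed genes and 0 to 1 transcripts, where the gene and the transcript came without WT4 and the 0 listed genes without WT2, WT4, KO2 or KO4. The replicate block and the cortical covariate gave 0 listed genes each, and females alone gave 5. For these other settings the share of all features at the unadjusted threshold is not given, so their counts are not read as results.

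Not every same-numbered pair of WT and KO mice deviated together (correlations of 0.077, -0.22, -0.22 and 0.27), and 1 of the 4 WT mice correlated best with its own number, so the numbers do not pair the mice. With the replicate number as a block, log2 fold changes turned to 0.081 for *Gfra2*, 0.0060 for *Ntrk2* and 0.11 for *Bdnf*, and 0 genes were called in all.

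The cortical covariate gave 0.47 for *Met*, 0.53 for *Gfra2* and 0.92 for *Bdnf*. Females alone gave 1.17 for *Met*, 0.57 for *Gfra2*, 0.020 for *Ntrk2*, 0.063 for *Cblb* and 0.45 for *Bdnf*, and share differences of -3.75 points for the long form of *Ret*, -0.80 for Gfra1-204 and 1.61 for the 982-residue form of *Cblb*. *Ntrk2* was 0.023 in DESeq2 with sex, 0.0018 with at least 10 counts in every mouse, 0.026 with sex in edgeR and 0.017 with length offsets.

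Leaving out each mouse in turn gave ranges of -0.21 to 1.51 for *Ret*, -1.20 to 0.93 for *Met*, -0.50 to 0.68 for *Gfra2*, -0.055 to 0.096 for *Ntrk2*, -0.19 to 0.0099 for *Cblb* and -0.74 to 1.07 for *Bdnf*. Share differences ranged from 0.10 to 5.47 points for the long form of *Ret*, 0 to 17.0 for Met-206, -6.57 to -3.25 for the 463-residue form of *Gfra1*, -1.27 to 1.5 for Gfra1-204, 2.45 to 6.14 for the 331-residue form of *Gfra2*, -5.89 to 1.40 for *Ntrk2* and -0.44 to 1.33 for *Ntrk3* with the kinase domain, and -6.07 to 0.41 for the 982-residue form of *Cblb*. Reversals came without WT2 (*Met*, *Gfra2*, *Bdnf*, *Cblb*, *Ntrk2* share), KO2 (*Ret*), KO4 (*Gfra2*, *Bdnf*), KO1 (982-residue share of *Cblb*), WT4, KO3 and KO4 (*Ntrk2*), WT2, WT3 and KO3 (Gfra1-204 share) and WT2, WT3 and each of KO2 to KO4 (*Ntrk3* share). Apart from what leaving out a mouse shows, the cause was not tested. The medians of the 8 genes and of each list lay near 0 and changed sign under at least 1 alternative each.

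Low counts limit *Met*, *Mst1r* and the genes that were not tested. *Lrig1* had an adjusted p of 0.286 in edgeR (Benjamini-Hochberg) and passed the threshold under some alternatives only, with a log2 fold change between -4.21 and -3.47 in all.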
